A study of Mus musculus with 32 samples.

Results

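The genes described here are 10 genes of the mouse eosinophil: Prg2, Epx, Prg3, Ear1, Ear2, Ear6, Ccr3, Il5ra, Alox15 and Siglecf, out of 20145 named genes on the array. They were chosen by their measured values, since granule genes of this cell were much lower in the PECAM-1 selected fraction of sunitinib-resistant tumours, and that contrast is therefore given below as a description with no test. Probes were matched to genes by RefSeq accession. All 10 genes were found, with 1 probe each apart from Siglecf, which has 2. The brighter is used, and the other is given beside it in several comparisons.

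Agilent mouse arrays of 1 colour measured the RNA of 32 samples. The tumours came from 4T1-Luc cells, mouse mammary carcinoma cells that carry luciferase, grown in the mammary fat pad of 8-week-old female Balb/C mice that received 40 mg/kg sunitinib, a receptor tyrosine kinase inhibitor, or the drug vehicle. At a size of 1300 mm3 each tumour was split into cells bound by PECAM-1 beads (the EC fraction, PECAM-1 being found on endothelial and some blood cells) and the digested tissue that remained (bulk), with 4 mice labelled resistant to sunitinib, 4 labelled sensitive to it up to day 8, and 4 vehicle mice. Smaller tumours gave bulk samples of 2 sunitinib and 2 vehicle mice at day 9, and of 2 and 2 at 600 mm3. Both fractions of a tumour come from 1 mouse, and the treatments have different mice. The EC fraction is a bead selection and not a pure cell type: the level summed over 12 endothelial marker genes was 6.36 to 7.03 in resistant, 6.97 to 7.80 in sensitive and 6.55 to 6.84 in vehicle EC samples, against 3.97 to 5.45 in bulk at 1300 mm3, while 11 macrophage markers summed to 7.43 to 10.04 in the EC fraction.

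Eosinophils are granulocytes made in the bone marrow under interleukin 5, which they sense through Il5ra, and drawn into tissues by eotaxins, which they sense through the chemokine receptor Ccr3. Their granules hold major basic protein (Prg2) and its homologue (Prg3), eosinophil peroxidase (Epx) and the eosinophil-associated ribonucleases (Ear1, Ear2, Ear6), a family that has expanded in rodents. Alox15 makes lipid mediators from polyunsaturated fatty acids, and Siglecf is an inhibitory receptor that binds sialic acid and is widely used to identify mouse eosinophils. Several of these genes are also known outside the eosinophil: Siglecf and some Ear genes in macrophages of the lung, Ccr3 and Il5ra in other leukocytes, and Alox15 in resident macrophages.

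Values are processed signals on the log2 scale, less the 75th percentile of the array, so that 0 is the level of the array's upper quartile. Values compare 1 gene between arrays, not 1 gene with another. By the call of the scanner software, the 10 genes were well above background on 21 (Prg3) to 32 (Ear2, Siglecf) of 32 arrays. Of all probes, 46.1% to 52.9% were well above background on the EC arrays of resistant mice, against 79.9% to 86.4% on those of sensitive and 80.3% to 82.2% on those of vehicle mice. The 8 resistant arrays share a slide that holds no other group, so that slide and resistance cannot be told apart. The bulk array of resistant mouse 2 stands apart from the other resistant bulk arrays, with 83.5% of probes well above background against 55.3% to 58.8%, and results that rest on it are given with and without it. Precision is limited by how many arrays a group has. In all these samples, fewer eosinophils and less RNA per eosinophil cannot be told apart.

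The windows around the start of the genes are shown for the ribonucleases first, because Ear1 and Ear2 had other values than Ear6 in the tumours of 600 mm3 described below. RefSeq promoter windows of 300 bases, from 250 before to 50 after the gene start (build GRCm38.p6), were found for 8 of the 10 genes, all but Prg2 and Alox15. The windows of Ear1 and Ear2 are near copies, with 294 identical bases in a global alignment of 300, against 259 for Ear1 with Ear6 and 277 for Ear1 with Ear10, a relative that is not among the 10. The transcripts of these paralogs are known to be alike as well, so a probe of 1 Ear gene may also bind RNA of another, and the Ear values are uncertain to that extent. Capitals mark GATAA or its reverse complement, TTATC, the core bound by GATA factors, and TTGCNNAA, a core bound by C/EBP factors, in stretches that begin at the same short anchor.
Ear1 (chr14:43819624-43819753, minus strand): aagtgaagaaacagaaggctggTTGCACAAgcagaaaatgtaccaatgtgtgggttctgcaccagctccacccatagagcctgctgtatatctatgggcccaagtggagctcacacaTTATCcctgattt
Ear2 (chr14:44102542-44102672, plus strand): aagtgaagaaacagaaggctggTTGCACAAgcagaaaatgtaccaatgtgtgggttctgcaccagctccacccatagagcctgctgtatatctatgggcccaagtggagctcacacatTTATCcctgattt
Ear10 (chr14:43923583-43923712, minus strand): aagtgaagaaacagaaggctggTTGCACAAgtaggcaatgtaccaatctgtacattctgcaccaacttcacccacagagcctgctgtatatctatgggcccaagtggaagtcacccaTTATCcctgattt
Rnase2a (chr14:51256120-51256268, minus strand): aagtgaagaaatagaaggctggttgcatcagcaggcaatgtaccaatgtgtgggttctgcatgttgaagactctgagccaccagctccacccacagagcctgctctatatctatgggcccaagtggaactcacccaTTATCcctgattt
Ear6 (chr14:51853634-51853782, plus strand): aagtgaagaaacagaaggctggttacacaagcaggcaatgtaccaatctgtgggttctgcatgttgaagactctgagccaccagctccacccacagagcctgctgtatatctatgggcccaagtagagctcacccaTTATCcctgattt

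All 5 ribonuclease windows held GATAA, read on the opposite strand, near the start of the gene. The TTGCNNAA core was in the windows of Ear1, Ear2 and Ear10 at matching places, in that of Rnase2a further upstream, outside the stretch shown, and not in that of Ear6. Of the 8 windows of the genes described here, 7 held GATAA on either strand, against 25.4% of all 32851 promoter windows of the same length. Ear1, Ear2 and Ear6 are among the 7, and their windows are 85.3% to 98% identical. The 7 windows are thus not independent, and the count is not read as an enrichment. TTGCNNAA was in 2 of the 8 (10.8% of all) and TATAAA, the third motif searched, in 1 of the 8, that of Epx (13.6% of all); Epx was the one of the 8 without GATAA. Genes outside the ribonuclease family that held GATAA are shown next, each with the bases around the match.
Prg3 (chr2:84988070-84988130, plus strand): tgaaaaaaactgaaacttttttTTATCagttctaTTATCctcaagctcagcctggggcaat
Ccr3 (chr9:124021920-124021968, plus strand): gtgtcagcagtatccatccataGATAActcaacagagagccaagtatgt
Il5ra (chr6:106749084-106749132, minus strand): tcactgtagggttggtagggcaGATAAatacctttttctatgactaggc
Siglecf (chr7:43351331-43351370, plus strand): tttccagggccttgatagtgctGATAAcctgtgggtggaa
A match describes the letters of the window and does not show that a factor binds there.

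In the EC fraction all 10 genes were lower in resistant than in vehicle mice, by log2 differences of -6.36 (Prg2) to -2.88 (Siglecf) with a median of -4.08, where the median of all genes tested was 0.03. These are the values that chose the genes, so they carry no test. On 9 of the 10 genes every resistant array lay below every vehicle array, as did 24.3% of all 17946 genes tested, and at an adjusted p under 0.05 in limma 46.3% of those genes were called in either direction. For Ear1 the highest resistant value, -2.87 in mouse 4, was just above the lowest vehicle value, -2.93 in mouse 4.

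Prg2 was at -1.81, -4.97, -4.96 and -3.05 in resistant EC samples, against 4.15, 1.93, 0.26 and 4.33 in vehicle EC samples. The resistant values of mice 2 and 3 were not well above background, and the vehicle values of mice 2 and 5 stood over 2 log2 units above those of mice 3 and 4. Epx, whose product makes oxidants from halides, was at -7.11 to -5.03 in resistant and at -3.39 to 0.65 in vehicle EC samples. Prg3 was at -6.87 to -5.84 in resistant and at -3.78 to -0.57 in vehicle EC samples. No resistant EC array had Epx, Prg3 or Il5ra well above background, so their differences are bounds: set against the lowest well-above-background signal of each array, Epx was at least 10.4-fold, Prg3 at least 5.87-fold and Il5ra at least 5.13-fold lower in resistant than in vehicle EC samples.

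The ribonucleases were also low in resistant EC samples. Ear1 was at -3.71, -4.56, -5.25 and -2.87 in resistant EC samples, against 1.68, -0.78, -2.93 and 1.87 in vehicle EC samples. Ear2, well above background on every array, averaged -2.19 ± 0.88 in resistant and 1.92 ± 2.27 in vehicle EC samples (SD, n = 4 each). Ear6 averaged -4.11 ± 0.25 in resistant and 0.83 ± 1.79 in vehicle EC samples. Ear1 and Ear6 were well above background on 2 of 4 resistant EC arrays each. The lowest well-above-background signals of those 4 arrays were -4.94 to -4.09. The resistant values of Ear1 and Ear6 thus lie partly at the floor, and the sizes of their differences are uncertain to that extent. All 3 ribonucleases had wide vehicle groups, which mice 2 and 5 topped.

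Among the receptors, Ccr3 averaged -3.78 ± 0.69 in resistant and 0.08 ± 1.31 in vehicle EC samples, and Il5ra -6.06 ± 0.63 and -2.16 ± 1.13 in the same order. Siglecf was at -2.18, -1.62, -2.11 and -2.32 in resistant EC samples, against 2.10, -0.52, -0.39 and 2.11 in vehicle EC samples, the smallest difference of the 10. Its other probe was lower by 2.21 (SE 0.61). Alox15 averaged -4.41 ± 1.06 in resistant and -0.46 ± 1.47 in vehicle EC samples. Ccr3 and Alox15 were well above background on 2 of 4 resistant EC arrays each, so the sizes of their differences are uncertain as well.

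Markers of other cell types were summed in the same arrays. T and NK cell genes were at 2.70 to 4.33 in resistant and 4.07 to 6.20 in vehicle EC samples, and 2 of 10 were called lower. B and plasma cell genes were at 0.08 to 2.24 in resistant and -0.27 to 2.71 in vehicle EC samples, and 3 of 7 were called lower. Neutrophil genes were at 7.23 to 9.00 in resistant and 7.52 to 9.95 in vehicle EC samples, with 2 of 11 called lower, and mast cell and basophil genes at 3.71 to 5.35 and 3.57 to 5.94, with 1 of 8 called lower. Macrophage genes were at 7.92 to 10.04 in resistant and 7.43 to 9.13 in vehicle EC samples, with 1 of 11 called in each direction, and 1 of 12 endothelial genes was called lower. None was called among 4 erythroid genes tested (3.57 to 5.44 in resistant and 4.03 to 6.37 in vehicle EC samples) or 10 genes of tumour epithelium (7.37 to 8.96 and 7.37 to 8.76), where 46.3% of all genes were called. The summed ranges of all 8 lists overlapped between the groups, and their part in the eosinophil values was not tested.

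**Figure D1:**
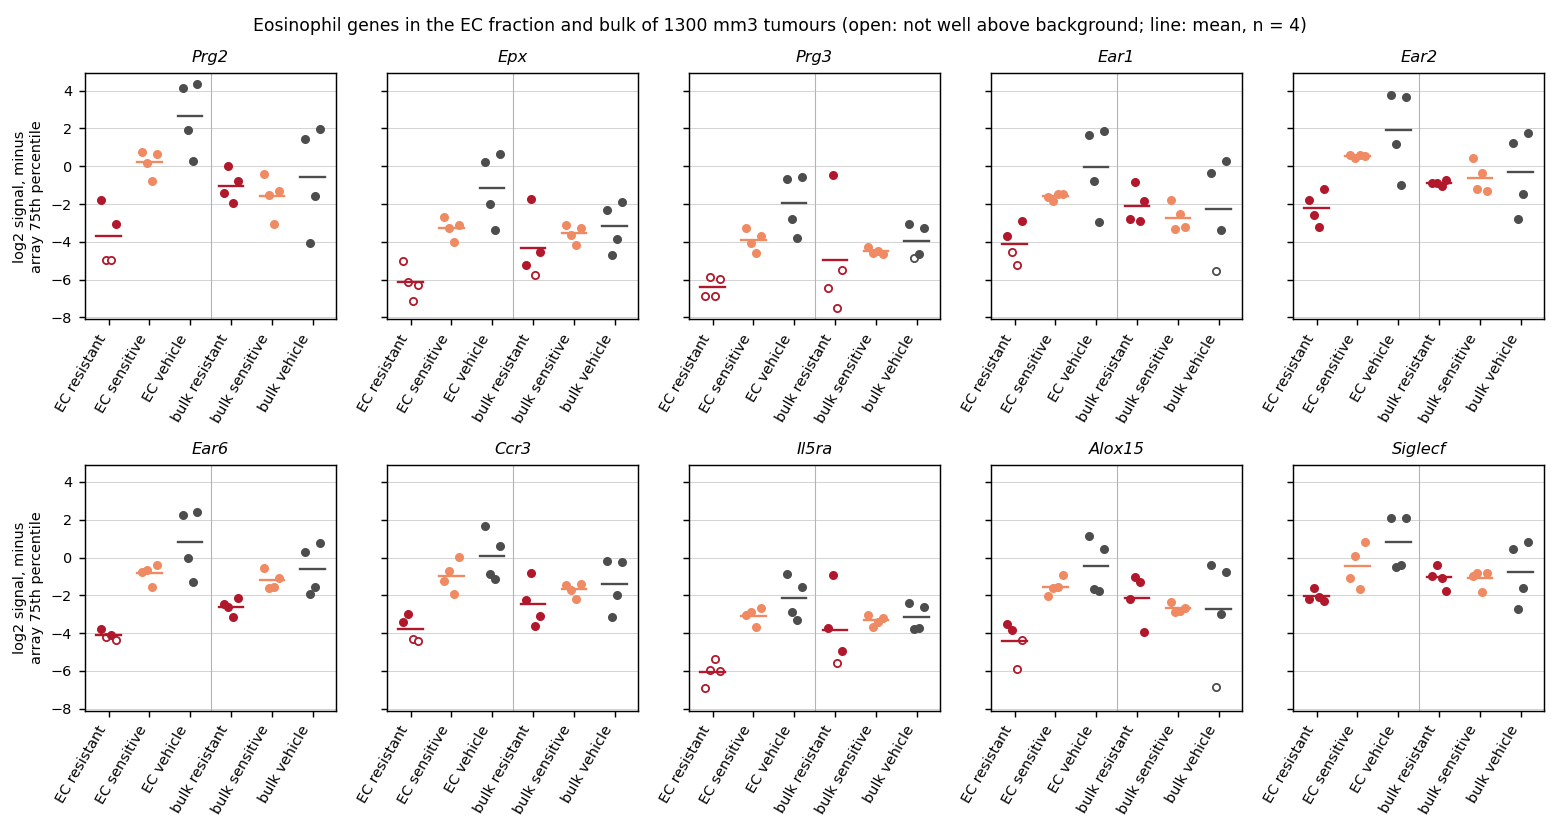
Level of each of the 10 eosinophil genes (log2 signal minus the array's 75th percentile, vertical axis) by group at 1300 mm3, with 1 point per mouse, the group mean as a line (n = 4) and open points where the probe was not well above background. In the EC fraction the resistant mean is lowest for every gene, while in bulk the resistant points overlap those of both other groups for all genes but Ear6, whose resistant points lie between -3.14 and -2.17.

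Against sensitive mice, which also received sunitinib, the resistant EC samples were lower for all 10 genes, by -3.90 (Prg2) to -1.60 (Siglecf), with a median of -2.85. This contrast shares the resistant arrays that chose the genes and is likewise given without a test. On 9 of the 10 genes the groups did not overlap, as on 25.3% of genes tested that were lower in resistant mice, and 46.3% of genes tested were called in this contrast. Siglecf was the exception, with its highest resistant value at -1.62 and its lowest sensitive value at -1.65. Its other probe had a difference of -0.76 (SE 0.61). Epx was at least 2.36-fold, Prg3 at least 1.52-fold and Il5ra at least 2.71-fold lower in resistant than in sensitive EC samples.

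Sensitive and vehicle EC samples share a slide, where each treatment fills a column of its own, so that column and treatment cannot be told apart. In their comparison no eosinophil gene passed, and 0% of 17946 genes did (limma, adjusted p under 0.05). All 10 averages were lower in sensitive mice, with a median difference of -1.47, against 0.02 for all genes. At an unadjusted p under 0.05 stood 4 of the 10, Prg2, Epx, Prg3 and Ear6, against 5.41% of all genes. The vehicle arrays are those of the contrast that chose the genes. Neither the common sign nor this count is therefore independent of that choice, and the count is not read as an enrichment.

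Prg2 was at 0.77, 0.16, -0.76 and 0.64 in sensitive EC samples, against 4.15, 1.93, 0.26 and 4.33 in vehicle EC samples, a difference of -2.46 (SE 0.92, limma adjusted p = 0.815). Prg3 had a difference of -1.95 (SE 0.64, limma adjusted p = 0.751), the lowest adjusted p of the 10. The sensitive samples lay close together while the vehicle samples spread widely: Ear2 averaged 0.54 ± 0.06 in sensitive and 1.92 ± 2.27 in vehicle EC samples (SD, n = 4 each), and Ear1 averaged -1.60 ± 0.16 and -0.04 ± 2.27. For all 10 genes the sensitive values overlapped those of vehicle mice. All 40 values of the sensitive EC samples were well above background.

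The mice with high values were the same in both fractions of a vehicle tumour. Averaged over the 10 genes, the vehicle EC samples of mice 2, 3, 4 and 5 stood at 1.54, -0.84, -1.87 and 1.40, and the bulk samples of the same mice at -0.53, -4.03, -2.68 and -0.32. Mice 2 and 5 were thus the 2 highest in each fraction. Other leukocyte markers differed between the same bulk samples: mast cell and basophil genes summed to 4.35, 1.43, 2.92 and 4.84, and neutrophil genes to 9.21, 7.33, 7.85 and 9.48, in mice 2, 3, 4 and 5. In the same order T and NK cell genes summed to 6.60, 3.92, 4.08 and 6.07, and B and plasma cell genes to 2.77, -0.40, -0.63 and 0.97. Macrophage genes, at 6.64, 7.54, 7.10 and 6.69, were lowest in mice 2 and 5. The pattern was not limited to leukocyte lists, since erythroid genes, at 8.47, 5.01, 7.23 and 9.00, were also highest in mice 2 and 5. Endothelial genes, at 4.36, 5.45, 4.22 and 4.24, and tumour epithelial genes, at 8.99, 9.07, 8.93 and 8.93, were highest in mouse 3. The part of these lists in the eosinophil values was not tested.

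Set against the bulk of their own tumour, the EC samples had opposite signs in vehicle and resistant mice, again as a description, since the EC values chose the genes. In vehicle mice all 10 genes were higher in the EC fraction in every one of the 4 mice, with mean differences of 0.98 (Il5ra) to 3.22 (Prg2) and a median of 2.02, where all genes had a median of -0.01. In sensitive mice all 10 means were also above 0, from 0.25 (Il5ra) to 1.77 (Prg2), and 6 of the 10 genes were higher in every mouse. In resistant mice all 10 means were below 0, from -2.68 (Prg2) to -1.02 (Siglecf), and 7 of the 10 genes were lower in every mouse. The sizes of these means rest in part on mouse 2, whose bulk array stands apart. Mouse 2 had the lowest differences of Prg2 (-4.99), Epx (-4.41), Prg3 (-5.36) and Il5ra (-4.98). In mice 1, 3 and 4 Prg2 had -0.40, -3.03 and -2.27, and Prg3 had -0.41, 0.64 and -0.50. Epx, Prg3 and Il5ra were the genes with 1 resistant mouse above 0, at values where the EC arrays hold no signal well above background. The share of all genes with the same sign in every mouse was not computed. The counts of genes higher or lower in every mouse are therefore not read as particular to the 10 genes.

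**Figure D2:**
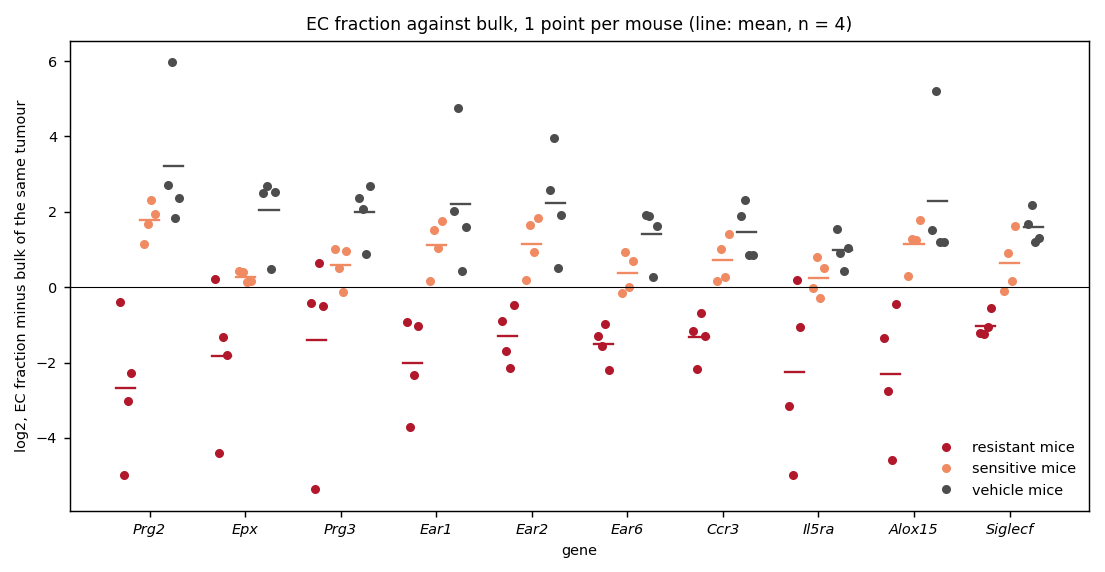
Difference between the EC fraction and the bulk of the same tumour (log2, vertical axis) for each gene, with 1 point per mouse and the mean of 4 mice as a line, for resistant, sensitive and vehicle mice from left to right. Vehicle points lie above 0 for every gene, and resistant means lie below 0, down to -2.68 for Prg2. The lowest resistant point of Prg2, Epx, Prg3 and Il5ra is mouse 2, whose bulk array stands apart.

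A further question was whether bulk tissue of resistant tumours also had less eosinophil RNA, and no eosinophil gene passed in either bulk contrast. Against vehicle, 0 of the 10 genes and 7.98% of 16972 genes passed (limma, adjusted p under 0.05), with a median of -0.62 for the 10 and 0.03 for all genes; 1 of the 10 had an unadjusted p under 0.05, against 23.4% of all genes. Ear6 came closest: it was at -2.47, -2.63, -3.14 and -2.17 in resistant bulk, against 0.32, -1.93, -1.54 and 0.79 in vehicle bulk. Ear6 was the only gene of the 10 whose groups did not overlap, in this contrast as in that against sensitive bulk. The share of all genes without overlap was not computed in bulk, so this is not read as particular to Ear6. Its difference was -2.01 (SE 0.56, limma adjusted p = 0.0530, with 0.0232 to 0.160 over the alternatives). Without vehicle mouse 3 the difference of Ear6 was -2.46 (limma adjusted p = 0.0232) and passed. Leaving out 1 array in turn, 661 to 5566 of all genes were called in this contrast. Against sensitive, 0 of the 10 and 12.3% of all genes passed, and Ear6, again without overlap, had -1.39 (SE 0.56, limma adjusted p = 0.133). Between sensitive and vehicle bulk 0 of the 10 and 0% of all genes passed, none of the 10 had an unadjusted p under 0.05 against 6.39% of all genes, and the differences ran from -1.01 (Prg2) to 0.06 (Alox15).

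Without the bulk array of resistant mouse 2 more genes passed over the whole array. Against vehicle the share of all genes called went from 7.98% to 32.6%, and against sensitive from 12.3% to 37.9%. Calls among the 10 genes are to be read beside those shares. The difference of Ear6, -2.01 with that array, hardly moved. Prg3 was at -6.44, -0.48, -7.51 and -5.47 in resistant bulk, with mouse 2 the high value and the only one well above background, against -3.06, -4.88, -4.66 and -3.26 in vehicle bulk. Leaving mouse 2 out, 4 of the 10 genes fell against vehicle, where 32.6% of 17084 genes were called in either direction (limma). The differences were -2.51 for Prg3 (SE 0.53, limma adjusted p = 0.00386), -2.007 for Epx (SE 0.62, limma adjusted p = 0.0291), -2.001 for Ear6 (SE 0.61, limma adjusted p = 0.0292) and -1.63 for Il5ra (SE 0.46, limma adjusted p = 0.0189). Against sensitive bulk, Prg3 (-1.98, limma adjusted p = 0.0127) and Il5ra (-1.44, limma adjusted p = 0.0295) fell, with 37.9% of all genes called. The 3 remaining resistant values of Prg3 are not well above background, so these sizes are bounds: Prg3 was at least 3.23-fold lower in resistant than in vehicle bulk and at least 2.23-fold lower than in sensitive bulk.

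The other 6 genes did not pass in bulk, with or without mouse 2. Prg2 was at -1.40, 0.02, -1.93 and -0.78 in resistant bulk, against 1.44, -4.05, -1.58 and 1.95 in vehicle bulk, and the resistant values fell inside the vehicle range. Its difference was -0.46 (SE 1.17, limma adjusted p = 0.855) and -0.81 (SE 1.25, limma adjusted p = 0.660) without mouse 2. The order of the group means of Prg2 over the fractions was EC vehicle at 2.67 ± 1.94, EC sensitive at 0.20 ± 0.69, bulk vehicle at -0.56 ± 2.80, bulk resistant at -1.02 ± 0.84, bulk sensitive at -1.57 ± 1.11 and EC resistant at -3.70 ± 1.55 (SD, n = 4 each). From EC sensitive down to bulk sensitive, neighbouring means lay closer together than the larger of their SDs. Ear2 in resistant bulk was tightly grouped at -0.88 ± 0.14, inside the vehicle range of -2.77 to 1.76. Siglecf averaged -1.04 ± 0.57 in resistant and -0.77 ± 1.67 in vehicle bulk, and its other probe had a difference of 0.11 (SE 1.00). Alox15 averaged -2.12 ± 1.29 in resistant bulk and -2.74 ± 2.97 in vehicle bulk, where mouse 3 was not well above background at -6.85.

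In the smaller tumours sunitinib and vehicle bulk were compared over both stages together. No eosinophil gene passed, and 0% of 17443 genes did (limma); 3 of the 10 had an unadjusted p under 0.05, Siglecf, Alox15 and Il5ra, against 1744 of all genes. Siglecf was at -3.11 and -1.24 in day 9 sunitinib tumours, against -0.82 and 0.60 in day 9 vehicle tumours, and at -3.15 and -3.30 in 600 mm3 sunitinib tumours, against -2.33 and -2.59 in 600 mm3 vehicle tumours. Every sunitinib value lay below every vehicle value of its stage, and the difference over both stages was -1.42 (SE 0.47, limma adjusted p = 0.349). The other Siglecf probe had -1.75 (SE 0.85, limma adjusted p = 0.968). It was well above background on 1 of 2 sunitinib arrays at each stage. Alox15 had the largest mean difference, -2.85 (SE 0.97, limma adjusted p = 0.367, with 0.0458 to 0.785 over the alternatives), and 3 of its 4 sunitinib values were not well above background. Without day 9 sunitinib mouse 2, Alox15 had -4.05 (limma adjusted p = 0.0458), where 131 of 18024 genes were called. None of the 3 sunitinib values left was well above background. Set against the lowest well-above-background signal of those arrays, with both stages weighted equally, Alox15 was at least 6.46-fold lower in sunitinib than in vehicle tumours.

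At day 9 the means of all 10 genes were lower in sunitinib than in vehicle tumours, by -4.23 (Alox15) to -0.52 (Prg3), with -2.36 for Ear1 and -1.96 for Ear2. Averaged over the 10 genes, sunitinib mouse 1 stood at -4.77 and mouse 2 at -1.79, against -1.99 and -0.68 in vehicle mice. These lower means thus rest mainly on sunitinib mouse 1, where Epx, Prg3 and Alox15 were not well above background. Epx in sunitinib mouse 2, at -4.29, lay above both vehicle values, -4.68 and -4.49. At 600 mm3 the mean differences were 3.92 for Ear1 and 4.22 for Ear2, while those of the other 8 genes were -1.47 (Alox15) to 0.60 (Epx), with 6 of the 8 below 0. In those tumours, Ear2 was at 3.08 and 1.38 in sunitinib tumours, against -1.59 and -2.39 in vehicle tumours, while Prg2 in the same tumours was at -5.17 and -4.17, against -3.53 and -3.16. Ear1 was at 1.03 and -0.79 in sunitinib and at -3.55 and -4.05 in vehicle tumours of 600 mm3. At day 9 the sunitinib mice split, with Ear2 at -1.64 in mouse 1 and 3.33 in mouse 2, against 2.20 and 3.41 in vehicle mice. The difference between the stages, day 9 minus 600 mm3, was -6.18 (SE 2.09, limma adjusted p = 0.256) for Ear2 and -6.28 (SE 2.46, limma adjusted p = 0.303) for Ear1, neither of which passed.

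Relatives of Ear2 in the ribonuclease family had like values. Ear10 was at 2.04 and 0.89 in sunitinib and at -1.54 and -2.62 in vehicle tumours of 600 mm3, and Rnase2a at 3.35 and 2.53 in sunitinib and at 0.05 and -1.43 in vehicle tumours. Ear6, whose window lacks the TTGCNNAA core shown above, was at -2.28 and -2.55 in sunitinib and at -2.79 and -2.21 in vehicle tumours of 600 mm3. With 5 windows this is a side by side of letters and levels and no test. In the EC fraction the relatives parted from Ear2: Rnase2a was at 0.98 to 2.68 in resistant and at 0.79 to 3.63 in vehicle EC samples, and Ear10 at -0.88 to 0.84 and -0.38 to 2.59, both overlapping, where Ear2 was lower in every resistant sample.

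**Figure D3:**
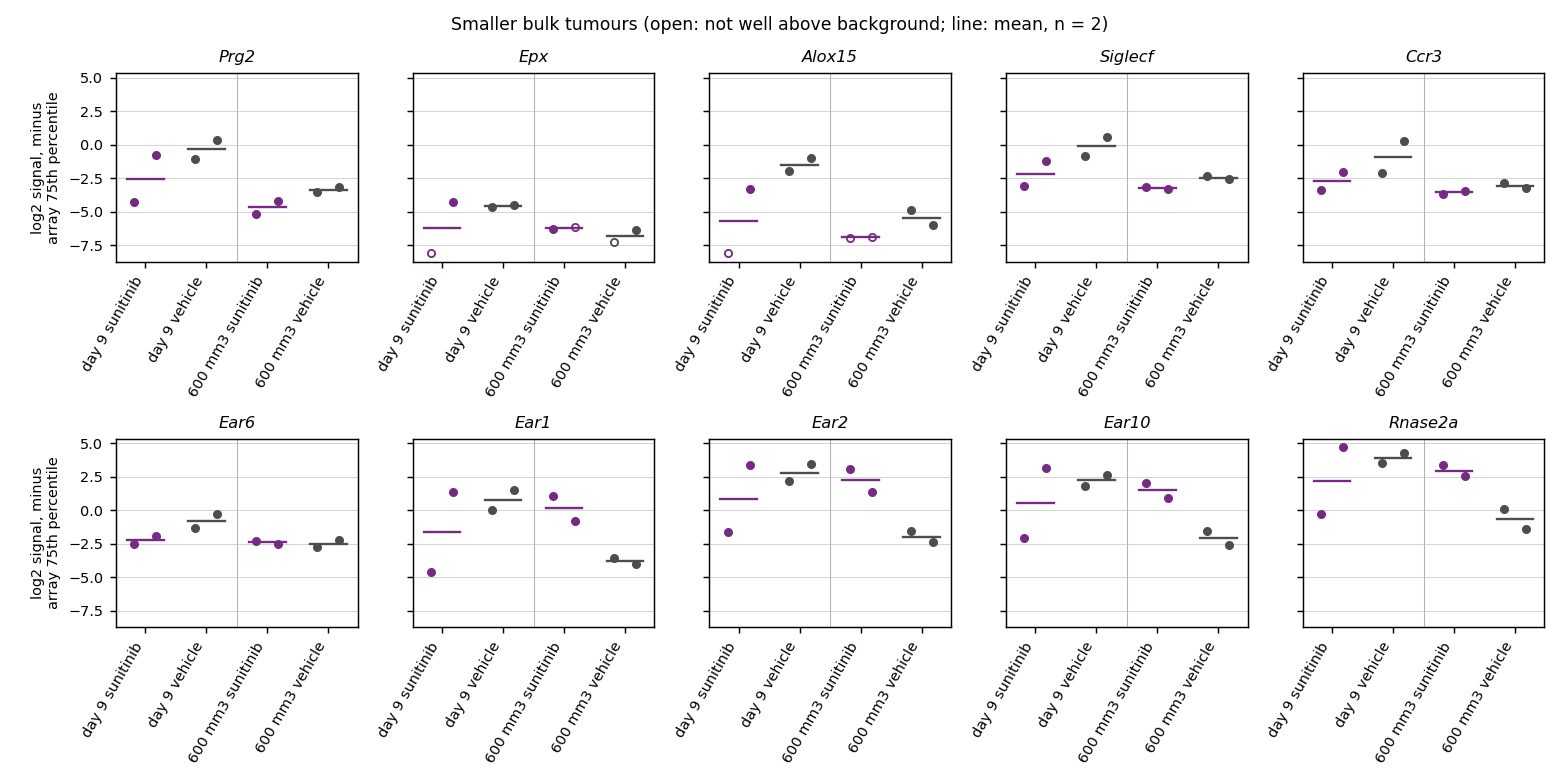
Level in bulk tumours resected at day 9 or at 600 mm3 (log2 signal minus the array's 75th percentile, vertical axis), with 1 point per mouse, the mean of 2 as a line and open points where the probe was not well above background, for 8 of the 10 eosinophil genes and for Ear10 and Rnase2a. At 600 mm3 the sunitinib points of Ear1, Ear2, Ear10 and Rnase2a lie above the vehicle points, and those of Prg2, Alox15, Siglecf and Ccr3 lie below them.

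Vehicle bulk at 1300 mm3 was set against vehicle bulk of the smaller tumours, which lie on another slide, so that size and slide cannot be told apart. None of the 10 genes passed, beside 9.09% of 18572 genes (limma), and 1 of the 10 had an unadjusted p under 0.05, against 27.5% of all genes. Epx was at -2.29, -4.67, -3.86 and -1.87 at 1300 mm3, against -4.68 and -4.49 at day 9 and -7.29 and -6.34 at 600 mm3, a difference of 2.53 (SE 0.89, limma adjusted p = 0.0844, with 0.0155 to 0.241 over the alternatives). Of the 10 means, 8 were higher at 1300 mm3, and those of Ear1 and Ear2 were lower, by 0.72 and 0.73 on the log2 scale. Without the bulk array of resistant mouse 2, which enters only the estimate of spread here, Epx (2.53, limma adjusted p = 0.0155) and Prg3 (2.06, limma adjusted p = 0.0163) passed, beside 30.5% of all genes. Without vehicle mouse 3, Epx (3.03, limma adjusted p = 0.0418) and Ear6 (1.51, limma adjusted p = 0.0462) passed, beside 2931 of 18546 genes.

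Over the 20 bulk arrays the 10 genes formed a larger and a smaller group. These are correlations between arrays that share slides, treatments and depth of signal, chosen with results known, and they carry no p. Among the 8 genes other than Ear1 and Ear2 the median Pearson r was 0.76 over 28 pairs, with a range of 0.49 to 0.95. Between Ear1 or Ear2 and those 8 genes the median was 0.34 over 16 pairs, with a range of 0.01 to 0.46. Within the 12 arrays at 1300 mm3 the medians were 0.68 and 0.70, so the division was not seen there, and within the 8 of smaller tumours they were 0.84 and 0.54. Prg2 and Siglecf had r = 0.946 (Spearman rho = 0.887, r = 0.927 without the 2 arrays farthest from the median of Prg2), and r was 0.916 within the 12 arrays at 1300 mm3 and 0.960 within the 8 of smaller tumours. Prg2 and Ear2 had r = 0.318 (rho = 0.466, r = 0.519 without the 2 farthest) over 20 arrays, yet 0.849 within 1300 mm3 and 0.470 within the smaller tumours, where it was -0.010 without the 2 arrays farthest from the median of Prg2. Ear1 and Ear2 had r = 0.955 (rho = 0.983, r = 0.936 without the 2 farthest on Ear1), with 0.905 and 0.989 within the sizes, and Rnase2a and Ear2 had r = 0.958 (rho = 0.862, r = 0.938 without the 2 farthest on Rnase2a), with 0.916 and 0.986.

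**Figure D4:**
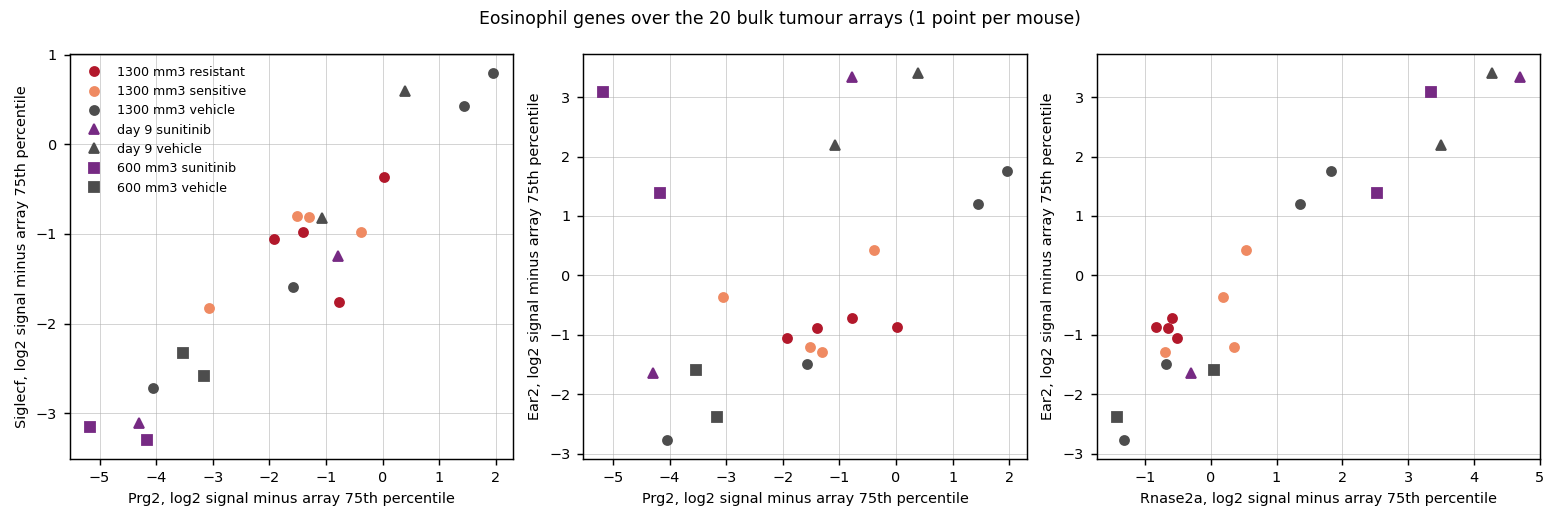
Levels of pairs of genes over the 20 bulk arrays (log2 signal minus the array's 75th percentile on both axes), with 1 point per mouse, colour for treatment and shape for size. Siglecf follows Prg2 (r = 0.946), Ear2 does not (r = 0.318), with the sunitinib tumours of 600 mm3 at low Prg2 and high Ear2, and Ear2 follows Rnase2a (r = 0.958).

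In the EC fraction no such division was seen. Over the 8 EC arrays of sensitive and vehicle mice, which share a slide, the median r was 0.93 among the other 8 genes and 0.91 between them and Ear1 or Ear2. The genes most like the granule pattern, the mean of Prg2, Epx and Ear2, were ranked among genes well above background on at least 10 of the 20 bulk arrays or 6 of the 12 EC arrays. Over the 20 bulk arrays they were Cebpe (r = 0.864), a transcription factor of late granulocyte maturation, Nfe2 (0.861), Tnfsf14, Reg3g, Lbp, Lrg1, Adgre4 and Cd209c (0.809). Over the 12 EC arrays they were Grm6 (0.964), coagulation factor F5 (0.961), Ldhc, Zbtb16, Klk1, Serpinb10, Cib3 and Khdc3 (0.940), a ranking that includes the resistant arrays whose values chose the genes. Cebpe with Prg2 alone had r = 0.913 (rho = 0.941, r = 0.934 without the 2 arrays farthest on Cebpe) over the bulk arrays, 0.911 within 1300 mm3 and 0.916 within the smaller tumours.

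The genes most like Ear2 alone, a ranking added after its values were seen, were Ear10 (r = 0.960), Rnase2a (0.958), Ear1 (0.955) and Chil3 (0.909), known as Ym1, a chitinase-like protein made by macrophages and neutrophils. Chil3 was at 5.99 and 5.23 in sunitinib and at -0.25 and -1.07 in vehicle tumours of 600 mm3. The summed level of the 11 macrophage markers was 6.25 to 6.89 in those sunitinib tumours, against 7.94 in both vehicle tumours. At 600 mm3 it was thus lower where Ear2 and Chil3 were higher. At day 9 the macrophage sum was 6.86 and 7.68 in sunitinib mice 1 and 2, against 7.74 and 7.58 in vehicle mice. Ear2 was at -1.64 and 3.33, against 2.20 and 3.41, in the same order, so sunitinib mouse 1 was lowest on both. The neutrophil sums of the 600 mm3 sunitinib tumours lay between those of the vehicle tumours. The part of either list in the Ear values was not tested.

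Other genes of eosinophil biology were read from 5 lists. Of 8 growth factors and type 2 cytokines 7 were tested in resistant against sensitive bulk, where 12.3% of all genes were called, and 1 of the 7 rose. It was Tslp, an epithelial alarmin, which averaged 3.33 ± 0.33 in resistant and 1.83 ± 1.01 in sensitive bulk (SD, n = 4 each, limma adjusted p = 0.0464, up to 0.141 over the alternatives). Against vehicle bulk Tslp did not pass (limma adjusted p = 0.137) but did without resistant mouse 2 (limma adjusted p = 0.0485). In vehicle bulk at 1300 mm3, set against the smaller tumours, Tslp had -1.64 (SE 0.39, limma adjusted p = 0.0210, up to 0.0905 over the alternatives) and Csf2, which prolongs eosinophil survival, 1.85 (SE 0.53, limma adjusted p = 0.0435, up to 0.139 over the alternatives). Il5, the main eosinophil growth factor, was well above background on 20 of 32 arrays and averaged -5.70 ± 1.18 in resistant and -5.61 ± 0.59 in vehicle EC samples. The lowest well-above-background signals were -4.94 to -4.09 on resistant and -6.26 to -5.89 on vehicle EC arrays. The resistant mean of Il5 thus lies under the floor of its arrays, and the like means do not show like levels.

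Of 9 chemokines that attract eosinophils, 0 passed in resistant against vehicle or sensitive bulk, in sensitive against vehicle samples of either fraction, or with sunitinib in the smaller tumours. In resistant EC samples 3 were called higher against vehicle and 2 against sensitive, with 46.3% of all genes called in each. Without resistant mouse 2, the eotaxin Ccl24 had -1.65 in resistant against vehicle bulk (SE 0.45, limma adjusted p = 0.0173). Ccl8 had -3.09 (SE 0.76, limma adjusted p = 0.0236, up to 0.114 over the alternatives) in vehicle bulk at 1300 mm3 against the smaller tumours. Ccl11, another eotaxin, averaged -0.71 ± 0.36 in resistant and -0.85 ± 0.62 in vehicle bulk, which overlapped. At 600 mm3 Ccl11 was at -3.90 and -3.33 in sunitinib and at -0.22 and 0.45 in vehicle tumours, while over both stages it did not pass (-2.38, SE 0.67, limma adjusted p = 0.268). In the EC fraction Ccl7 averaged 5.36 ± 0.98 in resistant and 3.77 ± 0.90 in vehicle samples, and Ccl8 6.63 ± 0.74 in resistant and 5.27 ± 0.50 in vehicle samples, where the receptor Ccr3 was lower in resistant samples.

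Of 16 other receptors carried by eosinophils, all of them tested, 2 fell in resistant against vehicle bulk, where 7.98% of all genes were called. The histamine receptor Hrh4 averaged -4.06 ± 0.29 in resistant, -1.26 ± 0.28 in sensitive and -1.33 ± 0.15 in vehicle bulk (SD, n = 4 each). Its difference was -2.73 against vehicle (SE 0.19, limma adjusted p = 1.74e-05, up to 0.0589 over the alternatives) and -2.81 against sensitive (SE 0.19, limma adjusted p = 1.25e-05). On the bulk array of resistant mouse 2 the lowest well-above-background signal was -3.05, so Hrh4 was not well above background there. The sizes of these differences are uncertain to that extent. Without that mouse the difference against vehicle was -2.64 (SE 0.19, limma adjusted p = 1.32e-06). In the EC fraction Hrh4 averaged -3.90 ± 0.21 in resistant and -1.85 ± 0.21 in vehicle samples. The resistant values of Hrh4 did not overlap those of the other groups in either fraction. Csf2rb2, a beta subunit of the mouse interleukin 3 receptor, averaged 1.89 ± 0.31 in resistant and 3.16 ± 0.57 in vehicle bulk (limma adjusted p = 0.0342, up to 0.181 over the alternatives). Without resistant mouse 2, 4 of the 16 fell, where 32.6% of all genes were called, the others being Csf2rb, the beta subunit shared with the interleukin 5 receptor (-1.06, limma adjusted p = 0.0446), and Ptgdr2, a prostaglandin D2 receptor (-1.64, limma adjusted p = 0.00371).

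Of 10 lineage transcription factors, 0 passed in resistant against vehicle bulk. Gata2 averaged -3.19 ± 0.34 in resistant and -4.44 ± 0.50 in sensitive bulk (SD, n = 4 each, limma adjusted p = 0.0390, up to 0.392 over the alternatives). Gata1, which eosinophil precursors need, averaged -5.04 ± 0.82 in resistant EC samples, none of them well above background, and -1.85 ± 1.55 in vehicle EC samples. Trib1, a pseudokinase that takes part in eosinophil development in mice, had 1.90 (SE 0.45, limma adjusted p = 0.0213, up to 0.0824 over the alternatives) in vehicle bulk at 1300 mm3 against the smaller tumours.

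Of 8 further genes of the ribonuclease family 4 had a named probe, of which Rnase2b was well above background on 2 of 32 arrays, and 0 were called in any of the 6 tested comparisons. Ang, a relative with a role in vessel growth, averaged -2.36 ± 0.63 in resistant and -1.75 ± 0.39 in vehicle bulk, and without resistant mouse 2 it had -0.91 (SE 0.23, limma adjusted p = 0.0127). In resistant against vehicle EC samples the median differences of the lists were -0.74 (ribonuclease family), -0.70 (growth factors), 0.34 (chemokines), 0.16 (receptors) and 0.21 (transcription factors), beside -4.08 for the 10 genes and 0.03 for all genes. The 10 genes were chosen by this contrast, so the gap between their median and the others is not independent of that choice.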

How the data were processed

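RNA of 32 samples was hybridised to single-colour Agilent arrays. Per the file headers, the deposited scanner files hold intensity values from Feature Extraction 10.7.3.1, with local background and spatial trend removed and no scaling between arrays; the submitters' processing notes name version 9.1. The authors' deposited table of all samples holds normalised intensity values with a centring method not given in the sources used here, and served as an alternative. Of 59305 spots that are not controls, outlier-flagged spots were left out and the others averaged into 55681 probes, of which 26582 matched a RefSeq accession of 20145 genes (GRCm38.p6). Values are log2 processed signal minus the array's 75th percentile.

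Genes well above background on at least 4 arrays (2 for smaller tumours and for all bulk arrays together) entered limma (version 3.58.1, R version 4.3.3) with Benjamini-Hochberg adjustment over all genes, threshold 0.05; all 10 eosinophil genes passed this filter in every fit. The fit was checked on simulated data. A bound takes, per array, the higher of the probe's own signal and the lowest among probes well above background, averaged over the group. The 10 genes and all lists were chosen with earlier results of these data known. Named are the 10 genes, called list genes of bulk comparisons (otherwise bright examples) and the 8 genes most like the granule pattern; others were chosen after their values were seen. Mouse numbers join both fractions of a tumour, but across treatments mark different animals. Figures were drawn with matplotlib 3.10.9 and Python 3.11.15.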

Additional observations from a re-analysis of the deposited data

How the results depend on the processing

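The alternatives were normexp on spot and background medians, quantile scaling, a percentile over probes detected on all arrays, the deposited values, no filter and a filter on every array, the mean of a gene's probes, a replicate block, the arrays of the shared slide and leaving out each array. No slide block could be fitted where resistance or size lies on a slide of its own. The count of eosinophil genes called was 0 in 118 of the settings of the 6 tested comparisons and above 0 in the other 8. These were 1 in resistant against vehicle bulk with the filter on every array (Ear6), 1 in large against smaller vehicle bulk with normexp (Epx), and 0 to 4, 0 to 2, 0 to 1 and 0 to 2 on leaving out 1 array in resistant against vehicle bulk, resistant against sensitive bulk, smaller tumours (Alox15, without day 9 sunitinib mouse 2) and large against smaller vehicle bulk (Epx and Prg3 without resistant mouse 2, Ear6 and Epx without vehicle mouse 3). Leaving out 1 array gave 0 to 0 in both comparisons of sensitive with vehicle.

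The median of the 10 genes in resistant EC samples was -2.31 against vehicle and -1.09 against sensitive with normexp, whose offset compresses low values; leaving out 1 array gave -5.02 to -3.49 and -3.002 to -2.47, and 1.37 to 2.47 for EC minus bulk in vehicle mice. All genes called in resistant EC samples numbered 4475 against vehicle and 4371 against sensitive with the filter on every array (12600 genes), and 7159 to 9146 and 6599 to 9167 on leaving out 1 array. In resistant against vehicle bulk they numbered 1354, 2297 with quantile scaling, 2314 with the deposited values, 437 with the replicate block and 661 to 5566 on leaving out 1 array. In resistant against sensitive bulk they numbered 2084, 808 with the replicate block and 1140 to 6467 on leaving out 1 array. For large against smaller vehicle bulk they numbered 1688, 398 with the replicate block and 140 to 5535 on leaving out 1 array. Sensitive against vehicle bulk gave 2 with the replicate block, 4 on the shared slide and 0 to 9 on leaving out 1 array, and smaller tumours 3 with normexp, 1 with the deposited values and 0 to 131 on leaving out 1 array. The replicate numbers join different animals across treatments: deviations of same-numbered samples correlated at -0.35 to 0.02 (EC) and -0.31 to 0.22 (bulk) between sensitive and vehicle mice, -0.23 to 0.24 (EC) and 0.07 to 0.31 (bulk) between resistant and vehicle mice over 3 pairs, and -0.01 to 0.19 between resistant and sensitive bulk over 3 pairs, and the block changed no call of the 10 genes. Causes were not tested beyond the fewer genes or arrays that some alternatives hold.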
